A study of Mus musculus with 8 samples.

Results

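Imprinted genes are expressed mainly or only from the allele inherited from one parent, and the genes described here are a list of 46 known mouse imprinted genes whose reads were followed by allele in female mouse embryonic stem cells (ESCs). Members were found by matching their symbols to the rows of the deposited RNA-seq tables. Of the 46 symbols, 45 were among the 24542 rows of each table, and Zfp264 was not analysed here. An allelic ratio could be followed for 29 of the 45, those with at least 10 reads assigned to an allele in all 8 libraries. Across all genes, 9595 met that criterion, 9148 of them autosomal. Shares given below for all genes include genes of the X chromosome, whereas every member found is autosomal.

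The cells were the TX1072 line, female ESCs with a hybrid genome of which one chromosome set is C57BL/6 (B6) and the other CAST/EiJ (Cast), grown in 2i/LIF medium. Doxycycline (DOX) induces Xist from the B6 X chromosome in this line. The 4 groups were Hdac3+/+ cells without DOX (0 hr) and after 24 hr of 1 µg/ml DOX, and Hdac3-/- cells at the same times, with 2 libraries in each. The Hdac3-/- libraries come from 2 CRISPR clones of the line. Libraries with the same replicate number are treated here as the same clone, and the labels do not say which of the study's clones carries which number. In its ChIP-seq, the study attributed a skewed X chromosome input in 1 of 2 mutant samples to some XO cells, which have a single X. Whether the RNA-seq libraries held such cells was not tested. The Hdac3+/+ libraries are duplicates of the parental line, and each clone has 1 library at each time. Comparisons of a single clone took its 0 and 24 hr libraries as replicates, with the time effect assumed equal in all cells. P-values therefore measure only the spread between these cultures. A property of a clone cannot be told apart from an effect of the mutation where the clones differ. The labels do not say which strain was the mother, so a ratio can be assigned to B6 or Cast but not directly to a parent.

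At many imprinted genes, though not at all, the imprint is set in the germline by DNA methylation of control regions. A zinc finger protein, ZFP57, and its partner TRIM28 protect this methylation after fertilization. Paternally expressed genes include growth-promoting factors such as Igf2, Mest and Peg3, and maternally expressed ones include growth-limiting factors such as H19, Igf2r, Grb10 and Cdkn1c. Female ESCs in 2i/LIF are known for low genome-wide DNA methylation, in which imprints can be lost. Deletion of Hdac3 removes the catalytic subunit of the NCoR and SMRT repressor complexes.

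Promoter sequences are given for 5 members that the results turn on, Peg3 and Sfmbt2 for a shift in allelic ratio, Mest and Plagl1 for a fall in total reads, and Meg3 for a skewed ratio in every library. Each line holds the 250 bases before an annotated start from RefSeq (GRCm38.p6), written 5′ to 3′ on the gene's strand. The reference genome is of the B6 strain. Capitals mark TGCCGC or its reverse complement GCGGCA, the hexamer that ZFP57 recognizes when its CpG is methylated.
Peg3, chr7:6730420-6730669, minus strand: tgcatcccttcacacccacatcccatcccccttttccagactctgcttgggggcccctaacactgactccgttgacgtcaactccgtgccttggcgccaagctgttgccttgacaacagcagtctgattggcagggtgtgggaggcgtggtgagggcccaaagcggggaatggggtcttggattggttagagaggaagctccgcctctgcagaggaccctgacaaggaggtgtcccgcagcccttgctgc
Sfmbt2, chr2:10372186-10372435, plus strand: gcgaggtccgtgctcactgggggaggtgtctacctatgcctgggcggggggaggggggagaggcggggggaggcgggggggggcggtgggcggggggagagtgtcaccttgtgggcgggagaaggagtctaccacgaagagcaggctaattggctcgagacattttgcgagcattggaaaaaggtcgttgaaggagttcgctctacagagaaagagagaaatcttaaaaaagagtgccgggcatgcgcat
Mest, chr6:30737800-30738049, plus strand: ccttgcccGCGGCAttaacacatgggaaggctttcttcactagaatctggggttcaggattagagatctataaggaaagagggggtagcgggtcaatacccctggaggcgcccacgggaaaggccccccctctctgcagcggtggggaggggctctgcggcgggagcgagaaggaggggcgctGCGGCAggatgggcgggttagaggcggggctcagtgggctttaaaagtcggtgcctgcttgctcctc
Plagl1, chr10:13090582-13090831, plus strand: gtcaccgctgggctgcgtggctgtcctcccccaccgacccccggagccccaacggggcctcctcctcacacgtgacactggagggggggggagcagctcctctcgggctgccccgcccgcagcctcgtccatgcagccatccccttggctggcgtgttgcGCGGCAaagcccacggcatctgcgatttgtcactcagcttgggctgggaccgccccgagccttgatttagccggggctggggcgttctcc
Meg3, chr12:109540746-109540995, plus strand: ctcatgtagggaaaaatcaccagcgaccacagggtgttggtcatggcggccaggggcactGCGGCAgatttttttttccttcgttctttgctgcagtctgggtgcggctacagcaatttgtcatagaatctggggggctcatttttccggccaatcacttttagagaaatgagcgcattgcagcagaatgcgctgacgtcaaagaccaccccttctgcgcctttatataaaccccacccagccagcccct

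The printed Mest window holds 2 such hexamers, the Plagl1 and Meg3 windows 1 each, and the Peg3 and Sfmbt2 windows 0. Of the 32851 windows of this length for all genes, 8.68% held the hexamer on either strand. For the members, 9 of the 56 windows that were matched, belonging to 8 of 37 genes, held it. CpG dinucleotides numbered 19 in the printed Plagl1 window, 15 in that of Sfmbt2, 14 in that of Mest, 10 in that of Meg3 and 8 in that of Peg3, against a median of 6 over all windows. Mest, Meg3 and Sfmbt2 have further annotated starts that are not printed. The windows beginning at chr6:30733256 (Mest), chr12:109545148 (Meg3) and chr2:10370201 (Sfmbt2) held 0 hexamers and 7, 0 and 8 CpG dinucleotides. No window was matched for Peg10. The Peg3 window shares 163 bases with the window of Usp29, which is transcribed in the opposite direction. These matches describe letters within the windows and were not tested against the expression values.

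Libraries held 6940375 to 17125156 reads on exons, of which 30.05 to 31.59% were assigned to an allele, and B6 took 49.24 to 50.01% of the assigned reads. Total Hdac3 reads fell by 2.61 on the log2 scale in Hdac3-/- cells at 0 hr (edgeR quasi-likelihood test, Benjamini-Hochberg adjusted p = 0.00039). Markers of ESCs (7 genes, among them Pou5f1, Nanog and Esrrb) summed to 4279.1 to 4498.0 CPM (reads of a gene per 1000000 reads on exons) in Hdac3+/+ and 4766.9 to 5000.0 in Hdac3-/- libraries, with no marker under 1 CPM in all libraries. Marker lists of other cell types were low, at 3.2 to 5.7 CPM for primitive endoderm and 12 to 34.7 CPM for trophoblast across all libraries. Fibroblast or feeder markers summed to 44.2 to 62.8 CPM in Hdac3+/+ and 29.4 to 41.0 CPM in Hdac3-/- libraries, and neural markers to 41.0 to 56.2 and 18.6 to 28.9 CPM. Elf5, Krt7, Postn and Pax6 were under 1 CPM in every library. The part of other cells in the results below was not tested.

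None of the 29 members with enough allelic reads was expressed from only one allele in the line or in either clone, and the members with fewer reads, Igf2 among them, are given further on. The allelic ratio is given as the d-score, the B6 reads over the sum of B6 and Cast reads, which is 0.5 when both alleles give equal reads. Values of the 4 Hdac3+/+ libraries are listed as replicates 1 and 2 at 0 hr and then replicates 1 and 2 at 24 hr, and those of a clone as 0 hr and then 24 hr. With monoallelic set as a d-score at or under 0.1 or at or over 0.9 in all libraries of a source, 0 of 29 members were monoallelic in Hdac3+/+ cells and in both clones, against 0.875%, 1.04% and 1.19% of autosomal genes. In Hdac3+/+ cells 21 of 29 members had a d-score between 0.3 and 0.7 in all 4 libraries, against 79.3% of autosomal genes. The other 8 were Meg3, Rian, Mirg, Dlk1, Ascl2, Impact, Sfmbt2 and Inpp5f. The counts were 23 of 29 in the replicate 1 clone and 22 of 29 in the replicate 2 clone, against 85.8% and 85.0% of autosomal genes. Each clone has 2 libraries and the line 4, so these counts are not comparable between sources. Bulk RNA cannot tell cells that use both alleles from a mixture of cells that each use 1. Some of the 29, named further on, are known as imprinted only in some tissues or isoforms. Even reads do not by themselves show a lost imprint, in these members or in the others.

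In Hdac3+/+ cells the median of the mean d-scores over the 29 members was 0.5 with quartiles of 0.431 and 0.544, and over the other 9119 autosomal genes it was 0.505 with quartiles of 0.453 and 0.555. The lowest member was Inpp5f with a mean of 0.151 and the highest Sfmbt2 with 0.718, while the other autosomal genes ran from 0 to 1. The medians were 0.494 and 0.501 in the replicate 1 and replicate 2 clones.

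**Figure D1:**
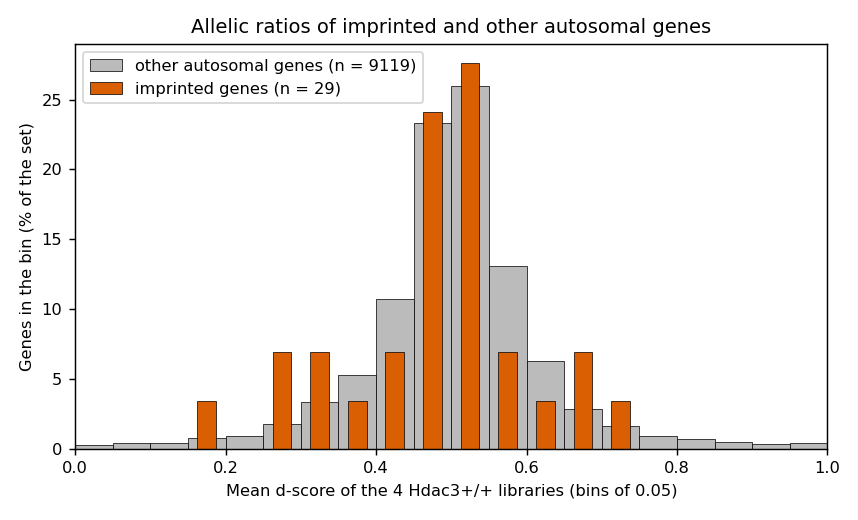
Share of genes (%) in each bin of 0.05 of the mean d-score of the 4 Hdac3+/+ libraries, for the 29 imprinted genes (narrow bars) and 9119 other autosomal genes (wide bars). Both distributions centre near 0.5, at medians of 0.5 and 0.505, and no imprinted gene lies below 0.151 or above 0.718.

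A ratio different from even was called for 14 of 29 members in Hdac3+/+ cells (48.3%; 46.3% of all 9595 genes), 5 toward B6 (23.2% of all genes) and 9 toward Cast (23.1% of all genes). Calls are from the edgeR quasi-likelihood test on B6 and Cast counts, at a Benjamini-Hochberg adjusted p under 0.05. In the replicate 1 clone 11 members were called (37.9%; 38.7% of all genes) and in the replicate 2 clone 12 (41.4%; 33.9% of all genes). Members were thus called about as often as other genes. The median size of the log2 B6:Cast ratio was 0.37 over the members and 0.30 over all genes in Hdac3+/+ cells, 0.19 and 0.33 in the replicate 1 clone, and 0.41 and 0.32 in the replicate 2 clone.

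The noncoding RNAs of the Dlk1-Meg3 cluster on chromosome 12 were skewed toward Cast in every library. Meg3 (chr12:109541001-109571726 on GRCm38), Rian and Mirg are maternally expressed long noncoding RNAs of neighbouring stretches of the cluster, the last a host of microRNAs, and are not independent observations. Meg3 d-scores were 0.252, 0.349, 0.249 and 0.371 in Hdac3+/+ cells, 0.279 and 0.268 in the replicate 1 clone, and 0.269 and 0.243 in the replicate 2 clone. Rian d-scores were 0.260, 0.338, 0.229 and 0.317 in Hdac3+/+ cells, 0.251 and 0.225 in the replicate 1 clone, and 0.241 and 0.257 in the replicate 2 clone. Mirg d-scores were 0.323, 0.281, 0.190 and 0.352 in Hdac3+/+ cells, 0.274 and 0.253 in the replicate 1 clone, and 0.258 and 0.186 in the replicate 2 clone. Cast thus gave most of the reads of the 3 RNAs, with 286 to 1398 allelic reads per library behind the values of Meg3 and Rian and 122 to 270 behind those of Mirg. The log2 B6:Cast ratio in Hdac3+/+ cells was -1.23 ± 0.096 (SE) for Meg3, -1.33 ± 0.074 for Rian and -1.34 ± 0.14 for Mirg, and each was called in every source and every fit.

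Dlk1, a paternally expressed Notch-like membrane protein of the same cluster, pointed toward Cast as well. Dlk1 d-scores were 0.420, 0.378, 0.383 and 0.297 in Hdac3+/+ cells, on 37 to 69 reads, and the ratio was called (log2 ratio -0.73, 95% confidence interval -1.16 to -0.30; edgeR adjusted p = 0.0041). In the clones, d-scores were 0.481 and 0.453 (replicate 1) and 0.424 and 0.410 (replicate 2), and neither was called. With DESeq2 the Hdac3+/+ ratio was not called (adjusted p = 0.051). The d-scores of Dlk1, known as paternal, were below 0.5 in all 8 libraries, as were those of the 3 RNAs known as maternal. Among 25 other genes within 2 Mb of the cluster the median d-score was 0.489 to 0.514 in the 8 libraries.

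Other members skewed toward Cast lay elsewhere. Inpp5f, a phosphoinositide phosphatase gene with an imprinted, paternally expressed variant, had the most skewed ratio of the 29, at 0.242, 0.193, 0.109 and 0.061 in Hdac3+/+ cells, 0.137 and 0.176 in the replicate 1 clone, and 0.170 and 0.119 in the replicate 2 clone. These values rest on 33 to 73 allelic reads, and the log2 ratio in Hdac3+/+ cells was -2.40 ± 0.27 (SE). Impact, a paternally expressed regulator of translation, had d-scores of 0.347, 0.333, 0.349 and 0.296 in Hdac3+/+ cells, 0.333 and 0.341 in the replicate 1 clone, and 0.397 and 0.347 in the replicate 2 clone. Both genes were called in every source and every fit, and the gene medians around them, within 2 Mb, were 0.516 to 0.543 for Inpp5f and 0.535 to 0.629 for Impact. Slc38a4, an amino acid transporter gene imprinted in placenta, was close to even at 0.473, 0.439, 0.478 and 0.488 in Hdac3+/+ cells, 0.481 and 0.480 in the replicate 1 clone, and 0.443 and 0.447 in the replicate 2 clone. It was called in Hdac3+/+ cells and the replicate 2 clone on 1066 to 2023 reads per library, with a log2 ratio of -0.18 ± 0.045 (SE) in the former, and in neither with DESeq2 (adjusted p of 0.21 and 0.14).

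Mest and Copg2 are neighbours on chromosome 6 whose annotated exons overlap by 912 bases on opposite strands. Mest, a paternally expressed hydrolase-like gene, had d-scores of 0.416, 0.439, 0.419 and 0.421 in Hdac3+/+ cells, 0.434 and 0.367 in the replicate 1 clone, and 0.443 and 0.538 in the replicate 2 clone. Copg2, a coat protein gene with maternal expression in some tissues, had 0.400, 0.439, 0.421 and 0.464 in Hdac3+/+ cells, 0.419 and 0.520 in the replicate 1 clone, and 0.390 and 0.534 in the replicate 2 clone. All 4 Hdac3+/+ libraries were below 0.5 for both genes. Mest was called in Hdac3+/+ cells, though not with DESeq2 (adjusted p = 0.063), and in the replicate 1 clone, where the call was lost without either library of that clone (edgeR adjusted p of 0.053 and 0.42) and with DESeq2 (adjusted p = 0.21). Copg2 was called in Hdac3+/+ cells. The Copg2 call was lost without either replicate 1 library of Hdac3+/+ cells (edgeR adjusted p of up to 0.26) and with DESeq2 (adjusted p = 0.22).

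Plagl1 and Kcnq1ot1 had d-scores over 0.5 in all 8 libraries. Plagl1 (chr10:13060504-13131694), a paternally expressed zinc finger transcription factor that slows cell division, had d-scores of 0.682, 0.680, 0.691 and 0.690 in Hdac3+/+ cells, 0.662 and 0.686 in the replicate 1 clone, and 0.682 and 0.690 in the replicate 2 clone, on 3277 to 6835 reads. The spread of all 8 libraries was small, and the log2 ratio was 1.13 ± 0.028 (SE) in Hdac3+/+ cells. Kcnq1ot1, a paternally expressed antisense RNA that silences neighbouring genes, was nearer to even at 0.561, 0.550, 0.558 and 0.517 in Hdac3+/+ cells, 0.540 and 0.536 in the replicate 1 clone, and 0.557 and 0.554 in the replicate 2 clone. Its log2 ratio was 0.28 ± 0.045 (SE) in Hdac3+/+ cells, and it was called in all 3 sources. The call in the replicate 1 clone was lost without either of its libraries (edgeR adjusted p of 0.078 and 0.11), and DESeq2 called neither clone (adjusted p of 0.36 and 0.13).

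Mcts2, a paternally expressed retrogene within an intron of H13, had d-scores of 0.620, 0.667, 0.452 and 0.5 in Hdac3+/+ cells, 0.687 and 0.706 in the replicate 1 clone, and 0.605 and 0.558 in the replicate 2 clone, and was called in the replicate 1 clone. That call was lost without the 24 hr library of the clone (edgeR adjusted p = 0.28) and with DESeq2 (adjusted p = 0.14), and differences between sources were not called. Zdbf2, a paternally expressed gene of chromosome 1, stayed near even, at 0.492, 0.511, 0.5 and 0.487 in Hdac3+/+ cells, 0.479 and 0.523 in the replicate 1 clone, and 0.547 and 0.529 in the replicate 2 clone. Its call in the replicate 2 clone (log2 ratio 0.22, edgeR adjusted p = 0.047) was lost in 5 of 8 fits that left out a library. The remaining 13 members with enough reads, Igf2r, Ube3a, Ascl2, Grb10, Sgce, Ppp1r9a, Gnas, Nespas, Peg13, Trappc9, Zrsr1, H13 and Herc3, were called in no source. Of these, Ascl2 had the widest range, 0.375 to 0.833, on 12 to 32 reads. Igf2r, known as maternally expressed, had 0.436 to 0.520 on 250 to 610 reads. Airn, the paternally expressed RNA of the same cluster, had 5 to 21 total reads per library. Whether Igf2r had lost an imprint or showed none in such cells to begin with was not tested.

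Paternally expressed members were skewed in both directions. In Hdac3+/+ cells, of 16 paternally expressed members 5 were called toward B6 (Sfmbt2, Peg10, Peg3, Kcnq1ot1 and Plagl1), 5 toward Cast (Mest, Inpp5f, Dlk1, Slc38a4 and Impact) and 6 were not called. Of 13 maternally expressed members with enough reads, 4 were called toward Cast (Copg2, Meg3, Rian and Mirg), 0 toward B6 and 9 were not called. Both tallies include members known as imprinted only in some tissues or isoforms. These are Ube3a, Ascl2, Ppp1r9a, Copg2, Gnas, Trappc9, H13 and Herc3 on the maternal side, and Slc38a4, Sfmbt2 and Inpp5f on the paternal side. The median d-score of non-members within 2 Mb, over 3 to 49 genes in 21 clusters, ranged from 0.419 to 0.646 in single libraries, and that of whole chromosomes from 0.491 to 0.521. The highest medians, 0.646 and 0.644, were those of 7 genes around Nap1l5 and Herc3 in 2 of the 8 libraries.

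**Figure D2:**
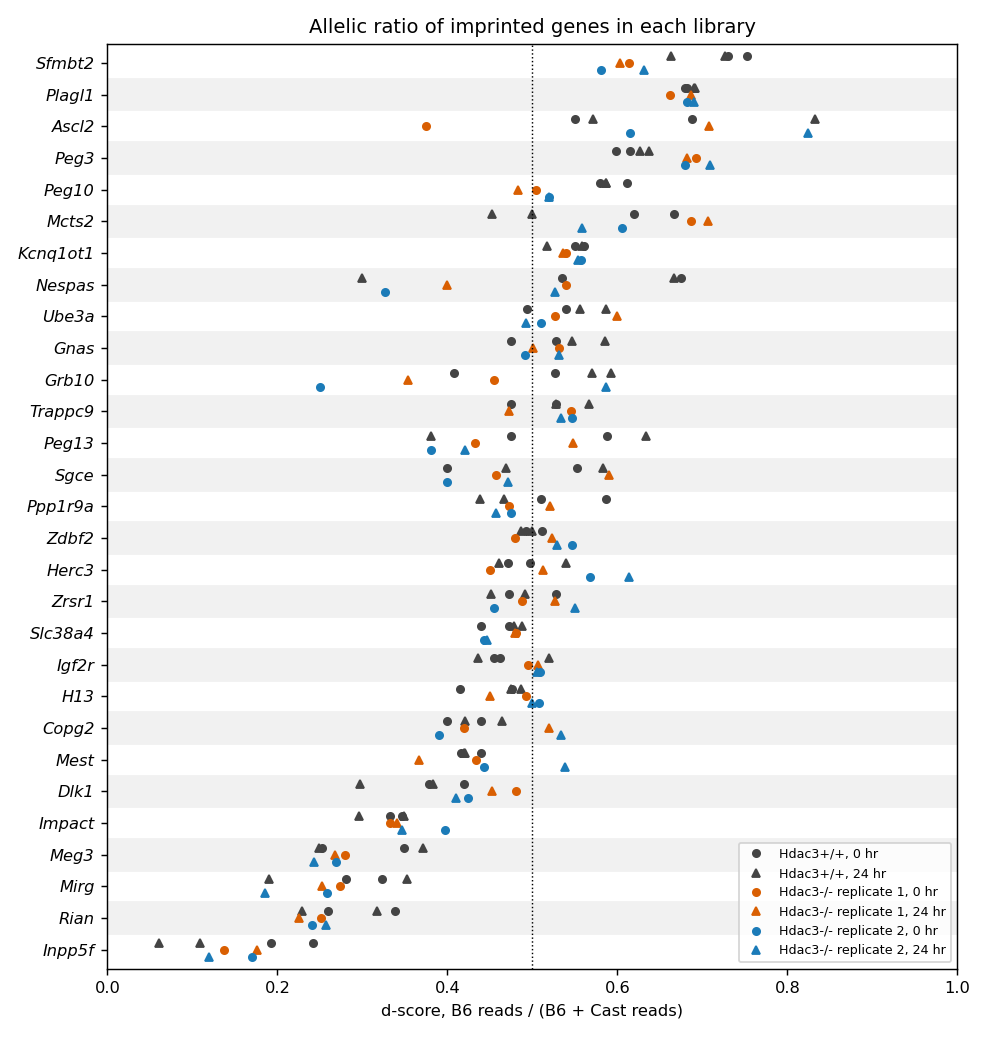
The d-score (horizontal axis, B6 over B6 plus Cast reads) of 29 imprinted genes in each of 8 libraries, ordered by the mean of Hdac3+/+ cells, with circles for 0 hr and triangles for 24 hr. The genes run from Inpp5f at a mean of 0.151 to Sfmbt2 at 0.718, and the clones lie apart from the 4 Hdac3+/+ libraries for Peg3, Peg10 and Sfmbt2.

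The allelic ratio of 3 members, all known as paternally expressed (Sfmbt2 in some tissues), changed in the Hdac3-/- clones, and the same 3 were called in each clone. Relative to Hdac3+/+ cells, Peg3 moved toward B6, away from even, while Peg10 and Sfmbt2 moved from B6 toward even. The count was 3 of 29 (10.3%) in each clone, against 3.42% of all genes in the replicate 1 clone and 5.02% in the replicate 2 clone. Both clones were compared with the same Hdac3+/+ libraries. With the clones as replicates at 0 hr the edgeR count was again 3 of 29, against 0.667% of all genes. That comparison reuses libraries of the comparisons by clone, and DESeq2 called 0 of 29 in it. Its count also depended on the Hdac3+/+ libraries of 0 hr, as given further on.

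Peg3 (chr7:6703892-6730431) encodes a zinc finger protein. Peg3 d-scores were 0.598, 0.615, 0.637 and 0.627 in Hdac3+/+ cells, 0.692 and 0.682 in the replicate 1 clone, and 0.679 and 0.709 in the replicate 2 clone, on 1272 to 3306 reads. All 4 Hdac3-/- libraries were above all 4 Hdac3+/+ libraries. The log2 B6:Cast ratio was 0.44 higher in the replicate 1 clone (95% confidence interval 0.31 to 0.58, edgeR adjusted p = 4e-06) and 0.48 higher in the replicate 2 clone (0.33 to 0.63, edgeR adjusted p = 6.1e-06). The alleles moved differently in the clones. In the replicate 1 clone B6 reads, scaled to all allelic reads, were 1.15 times and Cast reads 0.852 times those of Hdac3+/+ cells, and in the replicate 2 clone 0.742 and 0.531 times. Total Peg3 reads changed by 0.07 on the log2 scale in the replicate 1 clone (-0.07 to 0.21, not called), so the shift there came without a called change in level, and fell by 0.55 in the replicate 2 clone (edgeR adjusted p = 9.7e-06). The call in the replicate 1 clone was lost without its 0 hr library (edgeR adjusted p = 0.099).

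Peg10 (chr6:4747306-4760517), a paternally expressed gene derived from a retrotransposon, had the highest level per exon length among the members, 541.5 ± 45.1 TPM (reads scaled by exon length, SD, n = 4) in Hdac3+/+ cells. Peg10 d-scores were 0.579, 0.611, 0.587 and 0.587 in Hdac3+/+ cells, 0.504 and 0.483 in the replicate 1 clone, and 0.519 and 0.520 in the replicate 2 clone, on 2262 to 16844 reads. The groups did not overlap, and the B6 excess of Hdac3+/+ cells (log2 ratio 0.53 ± 0.030, SE) was 0.11 ± 0.039 in the replicate 2 clone, a call lost without either library of that clone (edgeR adjusted p of 0.073 and 0.46) and with DESeq2 (adjusted p = 0.69), and was not called in the replicate 1 clone. The log2 ratio was lower by 0.56 in the replicate 1 clone (difference -0.56, 95% confidence interval -0.66 to -0.47, edgeR adjusted p = 1e-13) and by 0.42 in the replicate 2 clone (difference -0.42, -0.52 to -0.32, edgeR adjusted p = 4.7e-09). Both alleles rose, B6 reads 2.29 times and Cast reads 3.38 times in the replicate 1 clone, and 1.18 and 1.58 times in the replicate 2 clone. Between the clones the ratio differed by -0.15 (replicate 1 minus replicate 2, -0.25 to -0.04), which was not called (edgeR adjusted p = 0.20).

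Sfmbt2 (chr2:10370510-10595253), a Polycomb-related gene imprinted in extraembryonic tissue, had d-scores of 0.752, 0.730, 0.663 and 0.726 in Hdac3+/+ cells, 0.614 and 0.603 in the replicate 1 clone, and 0.581 and 0.631 in the replicate 2 clone, on 156 to 649 reads. Again the lowest Hdac3+/+ value lay above the highest value of the clones. Peg3, Peg10 and Sfmbt2 were named because they were called, and such separation was not counted over all genes. The log2 ratio differed from Hdac3+/+ cells by -0.74 in the replicate 1 clone (-1.12 to -0.36, edgeR adjusted p = 0.014) and by -0.76 in the replicate 2 clone (-1.16 to -0.37, edgeR adjusted p = 0.010). Both alleles fell, to 0.313 times for B6 and 0.525 times for Cast in the replicate 1 clone, and to 0.364 and 0.618 times in the replicate 2 clone. These calls depended on single libraries, with an adjusted p of up to 0.40 in the replicate 1 clone and 0.64 in the replicate 2 clone when the 0 hr library of that clone was left out.

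With DESeq2 in place of edgeR, Peg10 in the replicate 1 clone was the only one of the 6 allelic differences between a clone and Hdac3+/+ cells that was called, and the sign of all 6 was kept. The other 26 members were called in neither clone. For Plagl1 the difference was -0.08 (-0.18 to 0.02) in the replicate 1 clone and 0.00 (-0.10 to 0.10) in the replicate 2 clone, among the narrowest intervals of the list. For Meg3 it was -0.18 (-0.49 to 0.13) and -0.31 (-0.64 to 0.03), and for Rian -0.35 (-0.59 to -0.11) and -0.27 (-0.53 to -0.01), with edgeR adjusted p of 0.11 and 0.33. For Dlk1 it was 0.54 (0.01 to 1.07) and 0.24 (-0.43 to 0.91).

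No difference in ratio between the clones or the times was called among the 29 members. At the shares of all genes given here, few calls or none would be expected of a list this size. Between the clones 0 of 29 members were called, against 2.72% of all genes, and 2 (Peg10 and Slc38a4) had an unadjusted p under 0.05 (edgeR), with 0 called by DESeq2. From 0 to 24 hr of DOX, 0 of 29 members were called in Hdac3+/+ cells (1.61% of all genes) and 0 of 29 in Hdac3-/- cells (0.406% of all genes) with edgeR, and 0 in both with DESeq2. These shares include genes of the X chromosome, where DOX induces Xist, and shares of autosomal genes alone were not counted here. Unadjusted p was under 0.05 for Inpp5f in Hdac3+/+ cells (log2 change -1.51, -2.77 to -0.25) and for Copg2 and Ascl2 in Hdac3-/- cells.

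**Figure D3:**
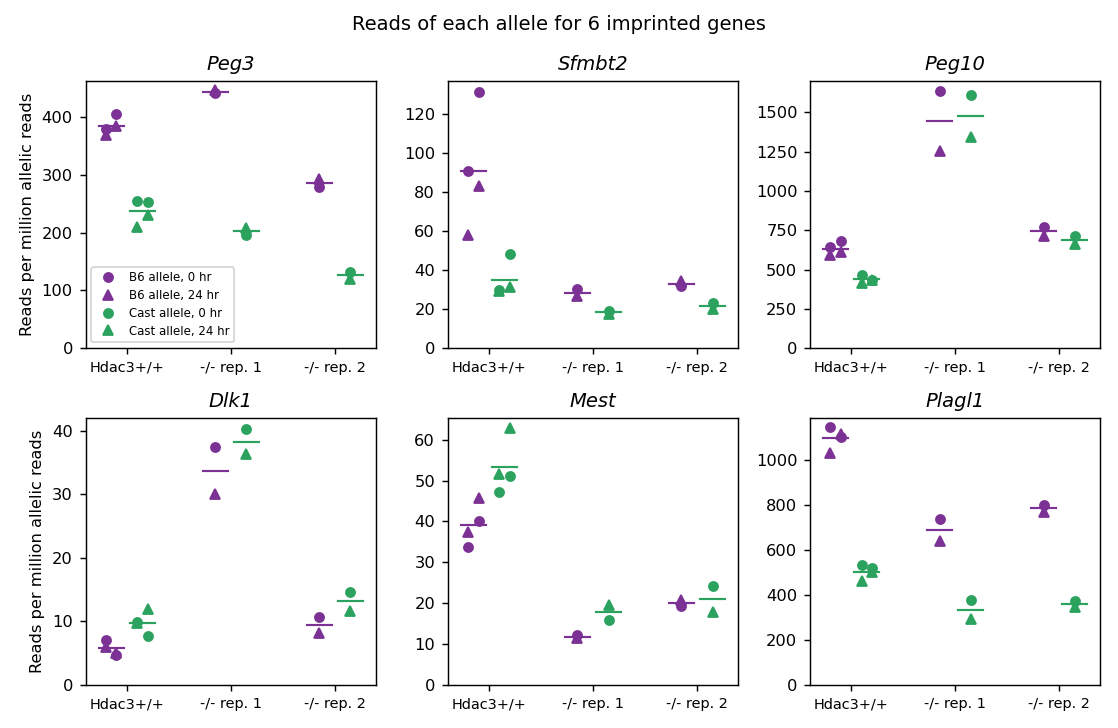
Reads of the B6 and the Cast allele (vertical axes from 0, in RPM, reads per 1000000 allelic reads) for 6 imprinted genes in each library, with a line at the mean of each source, circles for 0 hr and triangles for 24 hr. In the replicate 1 clone the Cast reads of Peg10 rose 3.38 times and the B6 reads 2.29 times, whereas those of Mest were 0.333 and 0.3 times and those of Plagl1 0.663 and 0.625 times the level of Hdac3+/+ cells.

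Total reads of the members changed about as often as those of other genes, with changes of named genes that differed between the clones. Of 41 members that passed the filter on low counts, 15 were called in the replicate 1 clone (36.6%; 41.7% of all 13649 genes), 6 higher (20.4% of all genes) and 9 lower (21.3%), and 17 in the replicate 2 clone (41.5%; 42.2% of all genes), 6 higher (19.5%) and 11 lower (22.6%). Snrpn, Magel2, Slc22a18 and Nap1l5 did not pass. The median log2 change was 0.01 and -0.08 over the members and -0.01 in both clones over all genes. With the clones as replicates at 0 hr, 9 of 41 were called (22%; 13.6% of all genes), 3 higher (Peg10, Zrsr1 and Dlk1, 6.33% of all genes) and 6 lower (Sfmbt2, Mest, Kcnq1ot1, Plagl1, Grb10 and Peg13, 7.24%). In bulk RNA, fewer cells with a transcript and less of it per cell cannot be told apart.

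Lower in both clones were Mest, Sfmbt2, Grb10 and Plagl1, each in every fit of the 2 comparisons with Hdac3+/+ cells. Mest (chr6:30723547-30748465) had 107.08, 124.14, 123.54 and 149.85 CPM in Hdac3+/+ cells, 42.10 and 44.30 in the replicate 1 clone, and 53.17 and 56.76 in the replicate 2 clone. No library of a clone came near the line, and the log2 change was -1.5 ± 0.097 (SE) in the replicate 1 clone (edgeR adjusted p = 8.7e-09) and -1.13 ± 0.096 in the replicate 2 clone (edgeR adjusted p = 1.7e-07). Its alleles fell together, to 0.3 times for B6 and 0.333 times for Cast in the replicate 1 clone, and to 0.511 and 0.396 times in the replicate 2 clone. Grb10 (chr11:11930508-12038683), a maternally expressed adaptor that limits insulin signalling, fell from 39.64 to 46.78 CPM in Hdac3+/+ cells to 20.38 and 24.00 in the replicate 1 clone and 14.52 and 15.96 in the replicate 2 clone. These are log2 changes of -0.91 ± 0.10 (SE) and -1.42 ± 0.11. Plagl1 had 721.07 to 815.05 CPM in Hdac3+/+ cells, 517.02 and 452.04 in the replicate 1 clone, and 543.28 and 529.37 in the replicate 2 clone, log2 changes of -0.64 ± 0.060 and -0.47 ± 0.060. Sfmbt2 had 90.45, 126.84, 62.27 and 80.54 CPM in Hdac3+/+ cells, against 29.97 to 40.70 over the 4 libraries of the clones. The groups did not overlap for any of the 4 genes, which were chosen here as called in every fit. Such separation was not counted over all genes.

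Higher in both clones, and in every fit of the same 2 comparisons, were Peg10, Dlk1 and Zrsr1. Peg10 had 1090.98, 1026.12, 951.03 and 960.18 CPM in Hdac3+/+ cells, 2952.09 and 2430.89 in the replicate 1 clone, and 1380.44 and 1259.86 in the replicate 2 clone. Dlk1 (chr12:109452823-109463336) had 8.94, 9.70, 9.52 and 9.51 CPM in Hdac3+/+ cells, 50.63 and 42.80 in the replicate 1 clone, and 13.52 and 13.20 in the replicate 2 clone. The replicate 1 clone stood far above the rest, with 4.96 times the Dlk1 and 2.67 times the Peg10 level of Hdac3+/+ cells. Both alleles of Dlk1 rose there, B6 reads 5.89 times and Cast reads 3.91 times, and Meg3 and Rian, its neighbours, were called higher there by 0.19 and 0.25 on the log2 scale. The Meg3 call held in 2 and the Rian call in 3 of 8 fits that left out a library. Zrsr1 (chr11:22972005-22976496), a paternally expressed retrogene related to a splicing factor, rose alike in both clones, from 37.16 to 42.74 CPM to 59.80 and 53.97 CPM in the replicate 1 clone and 53.66 and 51.34 CPM in the replicate 2 clone.

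The clones differed from each other in total reads for 11 of 41 members (26.8%; 17.2% of all genes), 8 higher (10.8%) and 3 lower (6.45%) in the replicate 1 clone. Sgce, the sarcoglycan gene that shares its promoter region with Peg10, rose together with Peg10 in the replicate 1 clone. Sgce had 4.12, 3.63, 5.16 and 3.46 CPM in Hdac3+/+ cells, 13.78 and 11.95 in the replicate 1 clone, and 5.31 and 5.72 in the replicate 2 clone. Its log2 change was 1.69 ± 0.18 (SE) in the replicate 1 clone, called in every fit, and 0.48 in the replicate 2 clone, not called. H19 (chr7:142575529-142578143), a maternally expressed long noncoding RNA, was lower in the replicate 2 clone, with 19.58, 17.88, 21.37 and 14.98 CPM in Hdac3+/+ cells, 14.19 and 16.08 in the replicate 1 clone, and 4.89 and 2.76 in the replicate 2 clone. The log2 change was -2.19 ± 0.21 (SE) in the replicate 2 clone (edgeR adjusted p = 5.8e-07) and the clones differed by 1.93 ± 0.23. Peg3 and its divergent neighbour Usp29, a ubiquitin protease gene, were both lower in the replicate 2 clone. Peg3 had 389.65 to 463.51 CPM in Hdac3+/+ cells, 429.72 and 456.43 in the replicate 1 clone, and 278.69 and 289.22 in the replicate 2 clone, and Usp29 had 4.90 to 6.68, 4.85 and 5.45, and 2.99 and 1.87 CPM. Phlda2, a maternally expressed growth-limiting gene, had 3.65 to 7.06 CPM in Hdac3+/+ cells and 1.91 and 0.89 in the replicate 2 clone (log2 change -1.67 ± 0.35, SE), a call lost without the 24 hr library of that clone (edgeR adjusted p = 0.064).

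**Figure D4:**
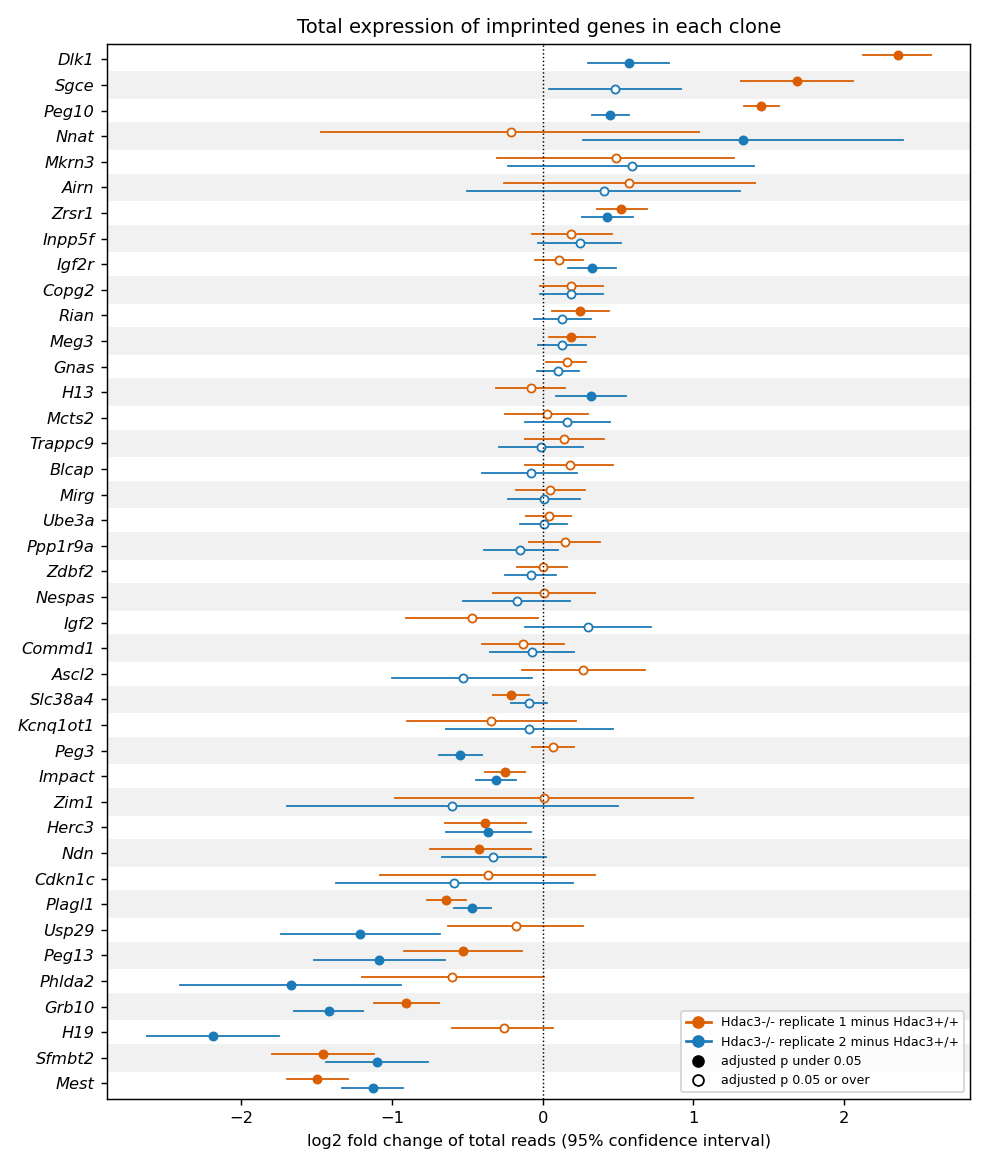
The log2 fold change of total reads with its 95% confidence interval for 41 imprinted genes in each Hdac3-/- clone against Hdac3+/+ cells, ordered by the mean of both, with filled points for an adjusted p under 0.05. Mest, Sfmbt2, Grb10 and Plagl1 are lower and Peg10, Dlk1 and Zrsr1 higher in both clones, while H19 is called only in the replicate 2 clone and Sgce is called only in the replicate 1 clone.

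The remaining calls, except that of Peg13 in the replicate 2 clone, were lost in some alternative fit. Impact fell by 0.25 on the log2 scale in the replicate 1 clone and by 0.31 in the replicate 2 clone. In the same order, Herc3 fell by 0.38 and 0.36, and Peg13 fell by 0.53 and 1.09. Ndn and Slc38a4 were lower in the replicate 1 clone, and Igf2r, H13 and Nnat higher in the replicate 2 clone. Nnat rose by 1.33 there, on 2 to 17 total reads per library. Neither the Nnat nor the Ndn call held with DESeq2 (adjusted p of 0.18 and 0.15). Kcnq1ot1 was called lower at 0 hr (log2 change -0.86, edgeR adjusted p = 0.047), where its Hdac3+/+ libraries had 598.80 and 338.95 CPM, against 213.20 and 273.80 in the clones and 166.47 and 188.89 in Hdac3+/+ cells at 24 hr. Without the higher of these libraries the change was -0.42 and not called (edgeR adjusted p = 0.22). From 0 to 24 hr of DOX, 0 of 41 members were called in Hdac3+/+ cells (0.198% of all genes) and 0 of 41 in Hdac3-/- cells (0.022% of all genes), with 7 and 1 at an unadjusted p under 0.05 and 1 and 0 called with DESeq2.

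Reads were too few for an allelic comparison in 16 members: H19, Igf2, Airn, Zim1, Usp29, Snrpn, Ndn, Magel2, Mkrn3, Cdkn1c, Phlda2, Slc22a18, Nnat, Blcap, Commd1 and Nap1l5. Summed over the 4 Hdac3+/+ libraries, H19 had a d-score of 0.606 (95% exact Clopper-Pearson interval 0.543 to 0.667, 254 reads), Usp29 0.697 (0.597 to 0.785, 99 reads) and Ndn 0.595 (0.483 to 0.701, 84 reads). Neither H19 nor Usp29 was monoallelic at this depth. For Phlda2 the sum was 0.724 (0.528 to 0.873, 29 reads), for Zim1 0.370 (0.232 to 0.525, 46 reads) and for Commd1 0.385 (0.234 to 0.554, 39 reads). The intervals cover counting error only. Igf2 was close to even in Hdac3+/+ cells, at 0.526 (0.358 to 0.690, 38 reads), and in the replicate 2 clone, at 0.571 (0.340 to 0.782, 21 reads), but had 0.95 (0.751 to 0.999, 20 reads) in the replicate 1 clone. When genes with fewer reads were included, the Igf2 ratio of the replicate 1 clone was called (edgeR adjusted p = 0.0029). Its difference from Hdac3+/+ cells was not (log2 difference 3.70 ± 1.35, SE, edgeR adjusted p = 0.14). Nor was the Igf2 difference between the clones (replicate 1 minus replicate 2, 3.49 ± 1.48, SE, edgeR adjusted p = 0.4). The same fit called H19 and Usp29 toward B6 in Hdac3+/+ cells (log2 ratios 0.66 and 1.17, edgeR adjusted p of 0.011 and 0.006). Usp29 was also called toward B6 in the replicate 1 clone (log2 ratio 1.38, edgeR adjusted p = 0.013). Snrpn had 0 to 9 allelic and 0 to 11 total reads, and shares 216 exonic bases with Snurf on the same strand, where reads could be split or dropped in counting. Nnat had 0 allelic reads in every library.

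Genes that protect or erase imprints were followed as a list of 20 in the same fits. In the replicate 1 clone 5 rose, 3 fell and 12 were not called, and in the replicate 2 clone 7 rose, 5 fell and 8 were not called, medians of -0.04 and 0.11 against -0.01 over all genes. Of all genes, 41.7% were called in the replicate 1 clone (20.4% rose and 21.3% fell) and 42.2% in the replicate 2 clone (19.5% and 22.6%). Zfp57 rose by 0.38 ± 0.061 (SE) and 0.74 ± 0.061 on the log2 scale, and its own ratio was skewed toward B6 in Hdac3+/+ cells (log2 ratio 1.60 ± 0.096). Uhrf1, which directs the maintenance methyltransferase to DNA, rose by 0.29 and 0.49, while the de novo methyltransferase Dnmt3b fell by 0.69 and 0.58. Dppa3, which guards methylation in the early embryo and can oppose UHRF1, fell by 2.38 and 2.20, the largest change of the list. In allelic ratio against Hdac3+/+ cells, Dnmt3b was called in both clones and Tet2 in the replicate 2 clone, out of 20. Of all genes, 3.42% were called in the replicate 1 clone and 5.02% in the replicate 2 clone.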

How the data were processed

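RNA-seq was made from rRNA-depleted RNA of TX1072 ESCs in 4 groups of 2 libraries. For each library the authors deposited 1 table of counts per gene symbol, without normalization: all reads on exons, reads assigned to the B6 allele and reads assigned to the Cast allele. Each deposited table also gives the d-score as a fraction, left empty under 10 allelic reads. Per the submitters' processing notes and the study's methods, reads were mapped with TopHat2 2.1.0 to mm10 and counted by strand with featureCounts 1.5.1. How reads were assigned to alleles is not given in the sources used here.

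Allelic ratios were tested with edgeR 4.0.16 (quasi-likelihood, R 4.3.3) on B6 and Cast counts, with an effect for each library, a B6 term for each source (Hdac3+/+ or a clone) or group and the same library size for both alleles, over 9595 genes with at least 10 allelic reads in all 8 libraries. Total counts were tested with edgeR after TMM scaling. At 0 hr this used the 4 libraries of that time, for genes over 1 TPM in 2 or more. Otherwise it used all 8 libraries after filterByExpr. Fits by source, for ratios and totals, held 1 time term shared by all sources, so the 2 libraries of a clone served as its replicates. P-values were Benjamini-Hochberg adjusted over all genes tested, with a threshold of 0.05. CPM values divide by all exonic reads and allele values by all allelic reads. TPM uses exon lengths of GENCODE M21, which placed 23882 of 24542 symbols. DESeq2 1.42.0, limma 3.58.1 (voom), other filters and scalings, a replicate block and leaving out each library were alternatives. Scripts were tested on simulated data with 200 changed genes.

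Deviations from the group mean, compared between libraries of the same replicate number at 0 and 24 hr, correlated at 0.638 in Hdac3-/- and 0.281 in Hdac3+/+ cells for totals, and at 0.293 and 0.014 for allelic ratios, across genes. For Hdac3-/- cells, numbers were taken as clones. Replicate libraries differed by more than sampling noise (chi-square per degree of freedom 3.7 to 12.6). Every member found is named, and per-library d-scores are given for members with a called ratio. The members and gene lists were chosen with earlier results of these data known. Exact Clopper-Pearson intervals have a level of 95%.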

Additional observations from a re-analysis of the deposited data

Results flagged for a closer look

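The clones differed from each other in the total reads of 11 members by edgeR (adjusted p under 0.05, 17.2% of all genes). Their allelic ratios differed in none of 29 (2.72% of all genes). In log2 (replicate 1 minus replicate 2), H19 differed by 1.93, Dlk1 by 1.78, Sgce by 1.21, Usp29 by 1.03, Peg10 by 1.00, Ascl2 by 0.80, Peg3 by 0.62 and Grb10 by 0.51. Those of lower level in the replicate 1 clone were Igf2 at -0.77, H13 at -0.40 and Mest at -0.37. The differences of H19, Dlk1, Sgce, Peg10 and Peg3 were called in every fit, and the other 6 were lost without at least 1 library of a clone. With 1 culture of each clone at each time, a difference between clones cannot be told apart from one between cultures or replicate numbers.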

How the results depend on the processing

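Over 98 calls of a member in a comparison, 1237 alternative fits kept the direction, 1094 of them as a call and 143 without one, and 52 calls held in every fit. In the order of ratio in Hdac3+/+ cells, ratio in the replicate 1 clone and ratio in the replicate 2 clone, leaving out 1 library gave 13 to 15, 7 to 11 and 9 to 12 called members. It gave 1 to 4 and 2 to 3 for each clone's ratio against Hdac3+/+ cells, 0 to 3 for the ratio at 0 hr, and 0 for the ratio between clones and between times. For totals it gave 3 to 13 at 0 hr, 10 to 16 and 12 to 18 for the clones, 5 to 13 between clones, 0 to 1 between times in Hdac3+/+ cells and 0 in Hdac3-/- cells. The 0 hr counts fell most without an Hdac3+/+ library of 0 hr: without replicate 1 to 1 member by ratio and 3 by total, and without replicate 2 to 0 and 5. The count between clones was 7, 6, 7 and 5 without the 0 hr and 24 hr library of replicate 1 and of replicate 2, and that of the replicate 1 clone's ratio against Hdac3+/+ cells was 1 without its 0 hr library. No left-out library made any of the 29 members with enough reads monoallelic.

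DESeq2 called 7 members for the ratio in each clone, 1 for the replicate 1 clone against Hdac3+/+ cells, 0 for the replicate 2 clone and 0 at 0 hr, and 1 for totals over time in Hdac3+/+ cells. Voom called 5 totals at 0 hr, and no filter on low counts gave 3 totals over time in Hdac3+/+ cells. With bounds of 0.2 and 0.8 the monoallelic count was 1 in each clone (Inpp5f). The cause of these differences was not tested.

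With a replicate block, which pairs libraries by number, 2 totals over time in Hdac3+/+ cells were called, and 12 totals at 0 hr, 18 and 21 for the clones and 16 between them. The block left counts of the ratio within 1.5 times, at 15, 11, 12, 4, 3 and 4 for the 3 sources, the 2 clones and 0 hr. Depth limits the 16 members with few allelic reads, whose ratios cannot be compared here.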

Other observations

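Among the Hdac3+/+ libraries, those numbered 2 had the higher d-scores of Meg3 and Rian at both times. For Meg3 they were 0.349 and 0.371, against 0.252 and 0.249 in those numbered 1, and for Rian 0.338 and 0.317 against 0.260 and 0.229. The exact binomial intervals of the Meg3 values at 0 hr were 0.217 to 0.289 for number 1 and 0.306 to 0.393 for number 2. In Mirg, which follows Rian, the libraries numbered 2 had 0.281 and 0.352 and those numbered 1 0.323 and 0.190. What the number stands for in the Hdac3+/+ libraries is not given in the labels, and the pattern was noticed after the values were seen.

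Plagl1 and Impact, both skewed in every library, fell in total reads in both clones without a called change of ratio (edgeR). Total Plagl1 reads fell by 0.64 and 0.47 on the log2 scale while its d-scores were 0.662 to 0.690 in the clones and 0.680 to 0.691 in Hdac3+/+ cells, and total Impact reads fell by 0.25 and 0.31 with d-scores of 0.333 to 0.397 against 0.296 to 0.349. Peg3 and Sfmbt2 fell as well in the replicate 2 clone, with a called change of ratio in opposite directions.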
